A study of Drosophila melanogaster with 2 samples.

Results

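The 10 genes described here encode subunits of the Polycomb and trithorax complexes of Drosophila melanogaster: E(z), Su(z)12, esc, Pc, Psc, pho, Sfmbt, brm, trx and ash1. They were selected by name, with their peaks in these data already known, out of 13968 protein-coding genes on the chromosome arms. Each locus was taken as the gene body and 2 kb on each side. The study mapped the chromatin binding of the CG8765 protein by chromatin immunoprecipitation and sequencing with an antibody against GFP, in embryos of a fly strain that carries CG8765 fused to eGFP. All embryos were collected as whole animals at 0 to 8 hours of age, so cells of every type were pooled. There was 1 group with 2 biological replicates and no second condition, and a control is named only as an input of the deposited lists. The values show where this tagged protein lies at the genes of chromatin regulators and do not measure Polycomb or trithorax proteins, their marks or the genes' transcription.

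Polycomb group proteins keep developmental genes such as the Hox genes silent, and trithorax group proteins keep them active. Polycomb repressive complex 2 (PRC2) methylates lysine 27 of histone H3, complex 1 (PRC1) binds and compacts such chromatin, and the Pho repressive complex (PhoRC) brings a sequence-specific DNA-binding protein to Polycomb response elements. On the trithorax side, Brahma complexes remodel nucleosomes, and Trithorax and Ash1 methylate other lysines of histone H3. In the fly embryo both groups act on genes whose pattern was first set by segmentation factors.

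The deposited lists gave a signal for each peak on genome build dm6. There were 2167 peaks in the conservative list of the series, 2877 in its less strict list, 1919 in replicate 1's own thresholded list and 1693 in replicate 2's. The less strict list did not hold every conservative peak. On chromosome Y, for example, it held 1 peak and the conservative list 2. Longer ranked lists held 142775 peaks (the list of the series that includes every conservative peak), 108098 (replicate 1) and 127098 (replicate 2). Every peak also has a score of up to 1000 set from the irreproducible discovery rate, and no thresholded list holds a peak with a score under 830. Signals are the authors' values on a scale that differs between lists, so ranks within a list are given beside them. The sequencing depth is unknown. Because the genes were chosen from these same peaks, their counts and ranks are a description and carry no test.

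Peaks lay at 8 of the 10 loci, in 3 different arrangements. At brm, E(z), Su(z)12 and Sfmbt the conservative summit lay within 500 bp of the gene's own transcription start site (TSS). At trx and Psc it lay far inside the gene, in an intron. At ash1 and Pc it lay past the 3' end of the gene, beside start sites of other genes. The esc and pho loci held no thresholded peak in any list. Thus 4 of 10 genes had a TSS peak, where 10.5% of all protein-coding genes had one. The locus count of 8 of 10 stood against 19.8% of all protein-coding genes, and against 24.3% of the 6029 genes whose length lay between those of the shortest and the longest of the 10. Only these bounds were set, and within them the 6029 genes were not matched to the lengths of the 10. The median length was 8.57 kb for the 10 genes and 2.16 kb for all protein-coding genes.

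**Figure D1:**
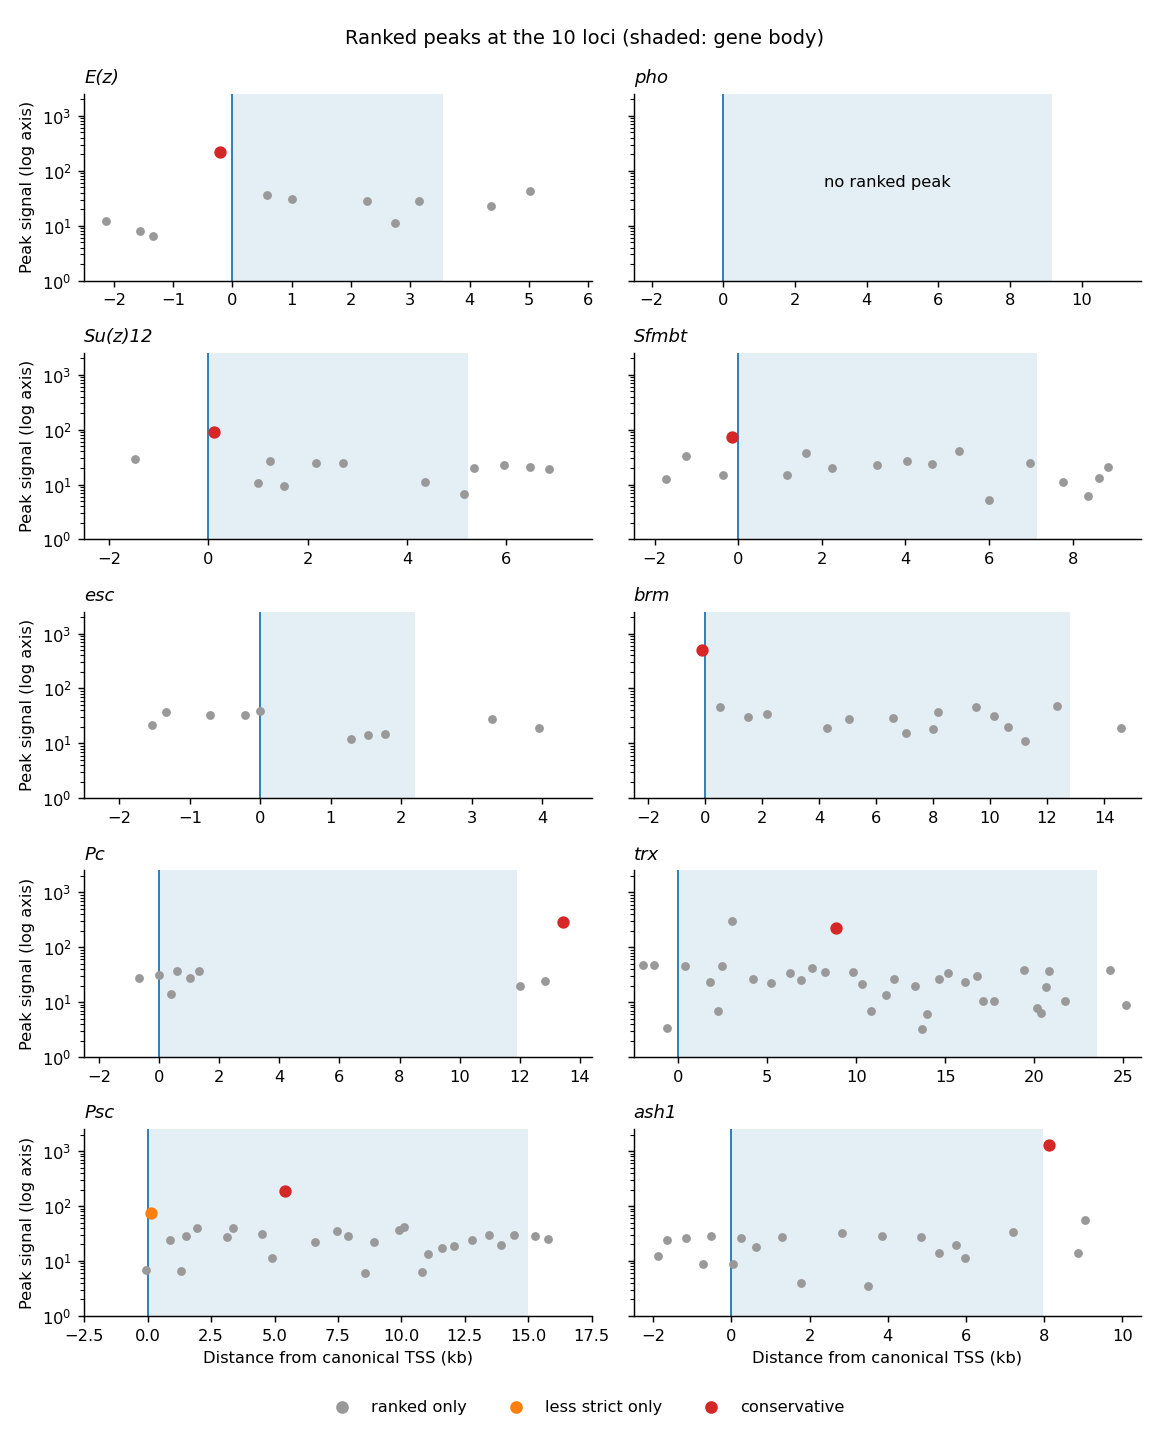
Every ranked peak at the 10 loci, with the peak signal in the series' ranked list (log axis) against the distance in kb from the canonical TSS. Shading spans the length of the gene, drawn from the canonical TSS. Red marks the conservative peaks, orange a peak found only in the less strict list and grey all other ranked peaks. Each of 8 loci has 1 red point above its grey points, except that at trx a grey point of 304.1 lies above the red one of 223.3. The E(z) peak sits left of 0 because its canonical TSS is not its outermost. It is therefore drawn outside the shading, although it lies in the 5' untranslated region of E(z).

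The sequences at the summits of these loci are shown because they carry the positions on which the results turn. Each was read from the RefSeq genome, runs 5' to 3' on the minus strand of dm6, from which all 10 genes are transcribed, and is centred on the summit with 100 bp on each side. The stretch at the Pc locus is shorter and starts where an annotated untranslated region of CG11309 ends. Capitals mark any match, on either strand, to 9 strings: the DNA replication-related element TATCGATA and, contained in it, the BEAF-32 string CGATA, then the TATA string TATAAA, the string GGTCACAC of core promoters, the homeodomain string TAATTA, the GAGA string GAGAG, the Pho core GCCAT, the E-box CAGCTG, and the Zelda string CAGGTAG. The stretches are chr3L:15982881-15983081 (brm), chr2L:13176824-13177024 (Sfmbt), chr3L:19590527-19590727 (ash1), chr3L:21304482-21304608 (Pc), chr3R:14277948-14278148 (trx, conservative) and chr3R:14283772-14283972 (trx, ranked lists).
brm promoter: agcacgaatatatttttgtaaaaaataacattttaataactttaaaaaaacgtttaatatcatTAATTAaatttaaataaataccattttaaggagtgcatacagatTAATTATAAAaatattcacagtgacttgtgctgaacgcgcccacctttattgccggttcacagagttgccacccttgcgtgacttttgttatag
Sfmbt promoter: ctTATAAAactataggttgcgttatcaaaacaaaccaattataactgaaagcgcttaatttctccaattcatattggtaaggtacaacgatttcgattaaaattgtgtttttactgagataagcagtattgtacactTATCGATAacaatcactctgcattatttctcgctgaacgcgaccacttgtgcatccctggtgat
ash1 downstream: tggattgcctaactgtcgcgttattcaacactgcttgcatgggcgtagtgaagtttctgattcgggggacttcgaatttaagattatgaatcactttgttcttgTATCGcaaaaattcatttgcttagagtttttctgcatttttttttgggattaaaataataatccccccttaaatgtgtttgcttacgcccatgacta
Pc downstream: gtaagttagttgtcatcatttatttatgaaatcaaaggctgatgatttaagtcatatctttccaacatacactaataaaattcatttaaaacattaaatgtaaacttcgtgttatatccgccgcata
trx intron, conservative peak: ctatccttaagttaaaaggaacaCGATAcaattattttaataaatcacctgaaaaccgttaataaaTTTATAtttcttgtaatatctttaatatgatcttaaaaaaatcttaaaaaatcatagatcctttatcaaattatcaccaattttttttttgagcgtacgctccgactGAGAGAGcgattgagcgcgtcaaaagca
trx intron, ranked peak: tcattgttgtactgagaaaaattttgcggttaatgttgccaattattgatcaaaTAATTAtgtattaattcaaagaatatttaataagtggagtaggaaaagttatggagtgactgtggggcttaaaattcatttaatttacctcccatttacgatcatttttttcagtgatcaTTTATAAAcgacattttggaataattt

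These stretches were rich in A and T. Over the 201 bp at the 8 conservative summits the G and C content ran from 28.4% (Pc and trx) to 37.3% (Su(z)12 and ash1), with a median of 32.8%, and the median over 2132 conservative summits was 36.8%. The TATA string TATAAA occurred in 5 of the 8 windows (E(z), Pc, Sfmbt, brm and trx) and in 32.3% of all conservative windows. The match at Pc lies outside the stretch shown. At brm it was centred 13.5 bp from the summit and overlapped a TAATTA string, which 15.1% of all windows hold.

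The DNA replication-related element TATCGATA was found at Sfmbt alone, centred 40.5 bp downstream of the summit, and in 4.13% of all windows. It contains the string CGATA in both orientations, which was also present at trx and, 6 bp from the summit, at ash1 (3 of 8 windows, against 28.9% of all). The GAGAG string, which GAGA factor recognises, was present at E(z), Psc and trx (3 of 8, against 25.7%). GCCAT, the core of the sequence bound by Pho, was present at Psc alone (1 of 8, against 27.5%), and so was the E-box CAGCTG (9.76% of all windows). GGTCACAC and CAGGTAG, found in 1.92% and 1.27% of all windows, were absent from the 8. A match is a description of the letters and not evidence of a bound site.

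The strongest promoter peak belonged to brm (FBgn0000212, chromosome arm 3L 15970082 to 15982869), which encodes the ATPase of the Brahma remodelling complexes. The conservative list gave it a signal of 505.6, at place 56 of 2167. In the ranked lists its signal was 198.2 in replicate 1 (place 99 of 108098) and 315.8 in replicate 2 (place 52 of 127098). Both replicates thus placed it within the first 100 peaks. The interval of 202 bp was narrower than the 324 bp that 83.7% of conservative peaks share. Its summit lay 112 bp upstream of the brm TSS, in intergenic sequence, and 90 and 134 bp upstream in replicates 1 and 2. The next strongest ranked peak of the locus had a signal of 48.0, so the promoter peak stood 10.5-fold above it.

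Among the PRC2 genes, E(z) (FBgn0000629, 3L 10634575 to 10638130), which encodes the catalytic methyltransferase, had a promoter peak of 217.3 at place 325 of the conservative list. Its signal was 103.1 in replicate 1 (place 393) and 118.1 in replicate 2 (place 331), so the ranks differed little between replicates. The summit lay 40 bp downstream of the outermost TSS, in the 5' untranslated region, and 72 and 79 bp downstream in the replicates. Measured from the canonical TSS, which lies inside the gene, the same summit was upstream, at -211 bp.

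Su(z)12 (FBgn0020887, 3L 19918242 to 19923462), a core PRC2 subunit that the methyltransferase needs for activity, had a weaker promoter peak of 90.4 at place 1329, below the middle of the list. Replicate 1 gave it 38.1 (place 2044) and replicate 2 gave it 55.1 (place 1249). Its summit lay 104 bp downstream of the only annotated TSS, in the 5' untranslated region, and it stood 3.12-fold above the next ranked peak of the locus in the series list, 1.81-fold in replicate 1 and 3.0-fold in replicate 2.

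The remaining PRC2 gene, esc (FBgn0000588, 2L 11827204 to 11829405), which encodes the WD-repeat subunit, had no thresholded peak. In the series' ranked list its best peak lay at the promoter, 7 bp upstream of the TSS, inside an intron of Pde1c. That peak had a signal of 39.6, place 13257 of 142775 and a score of 241, well under 830. In the replicates the promoter peak had signals of 15.1 (score 61) and 20.8 (score 92). In the series list it was 1.06-fold above the next ranked peak of the locus, at 37.6. In both replicates the strongest peak of the locus lay elsewhere in Pde1c, with a signal of 16.0 at -1347 bp in replicate 1 and of 28.0 at -1459 bp in replicate 2.

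Of the PhoRC genes, Sfmbt (FBgn0032475, 2L 13169649 to 13176785), which encodes the partner of Pho with malignant brain tumour repeats, held the weakest conservative peak of the 8, with a signal of 74.6 at place 1710. It was absent from both replicates' own thresholded lists. In the replicates' ranked lists, the promoter peak had a signal of 36.8 and a score of 713 in replicate 1 and of 45.5 and 661 in replicate 2, both under 830. The summit lay 139 bp upstream of the TSS in the series list and 72 and 54 bp upstream in the replicates, the largest shift of the 4 promoter peaks between the series list and the replicates.

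The other PhoRC gene, pho (FBgn0002521, chromosome 4, 1172469 to 1181628), encodes the DNA-binding zinc finger protein Pleiohomeotic and had 0 ranked peaks in each of the ranked lists. This cannot be read as a lack of binding. Chromosome 4 held 26 ranked peaks in the series list, or 19.3 per Mb, against 969 per Mb on arm 3L. The list of replicate 1 held 19 (14.1 per Mb, against 749.9) and that of replicate 2 held 166 (123.1 per Mb, against 909.2). In the series list only 1 of the 80 protein-coding genes of chromosome 4 (1.25%) had a ranked peak within 500 bp of a TSS. Over all arms, 79.5% of protein-coding genes had such a peak, and 9 of the 10 genes did, all but pho.

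At both PRC1 genes the own promoter was not in the conservative list. Psc (FBgn0005624, 2R 12965997 to 12980994) encodes a RING finger subunit that compacts chromatin. Its conservative peak, 2R 12975536 to 12975648, lay in an intron, 5071 bp downstream of the nearest Psc TSS, with a signal of 184.5 at place 446. It was in the thresholded lists of both replicates, with 107.9 in replicate 1 (place 364 of the ranked list) and 75.7 in replicate 2 (place 707). Replicate 1 gave it the higher place, and at the other 7 loci replicate 2 did, in lists of different length.

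The Psc promoter itself lay on the border of the thresholds. A peak with the summit 145 bp downstream of the TSS and a signal of 74.0 was in the less strict list (score 920, place 1951 of 2877), whereas the ranked list behind the conservative list gave the same peak a score of 816, just under 830. Its scores were 267 in replicate 1 and 692 in replicate 2. With it, 5 of the 10 genes had a TSS peak in the less strict list (12.3% of all protein-coding genes), and E(z), Su(z)12 and brm had one in each replicate's own list (3 of 10, against 8.35% of genes in replicate 1 and 8.78% in replicate 2).

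Pc (FBgn0003042, 3L 21306138 to 21318020) encodes the chromodomain subunit that recognises methylated histone H3. The conservative peak in its locus, 3L 21304520 to 21304640, had a signal of 291.5 at place 170, with 106.2 in replicate 1 (place 374) and 186.6 in replicate 2 (place 139). It lay 1556 bp past the 3' end of Pc and 13438 bp from the Pc TSS. The nearest start sites were those of CG11309, 76 bp upstream of the summit, and CG7632, 115 bp away on the opposite strand. At the Pc promoter the best ranked peak had a signal of 31.0, place 30139 of 142775 and a score of 221.

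The strongest peak of all 10 loci was at the 3' end of ash1 (FBgn0005386, 3L 19590773 to 19598755), which encodes a histone H3 methyltransferase. Its signal of 1271.7 was at place 5 of the conservative list, and it ranked at place 10 in replicate 1 (502.2) and place 4 in replicate 2 (777.4). The summit lay 146 bp past the end of ash1 and 8128 bp from the ash1 TSS, but 103 bp upstream of the TSS of CG14100, a gene on the same strand. The other ranked peaks of the locus reached at most 56.2, a 22.6-fold lower signal. At the ash1 promoter the best ranked peak had a signal of 25.8 and place 46852 of 142775, the lowest of the 9 promoters with a ranked peak in that list. It stood at 44.3% of the list of replicate 1 and at 10.1% of that of replicate 2, where the promoters of esc, Pc and trx ranked lower.

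At trx (FBgn0003862, 3R 14263358 to 14286903), which encodes a histone H3 lysine methyltransferase of the COMPASS family, the conservative peak lay in an intron 8855 bp downstream of the TSS. Its signal was 223.3 (place 309), with 103.5 in replicate 1 (place 389) and 116.0 in replicate 2 (place 341). The highest ranked peak of the locus was a different one, 3R 14283819 to 14283961, also intronic, with the summit 3031 bp downstream of the TSS. It had a signal of 304.1, place 164 of 142775 and the highest score of 1000, and scores of 1000 in both replicates as well, where its signals were 111.5 and 192.9. No thresholded list held a peak that overlaps it. The thresholded lists derive from 1 further deposited input that the ranked lists do not, and its part in this absence was not tested. At the trx promoter the replicates differed, with a ranked peak at place 2750 in replicate 1 and at place 69716 in replicate 2.

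**Figure D2:**
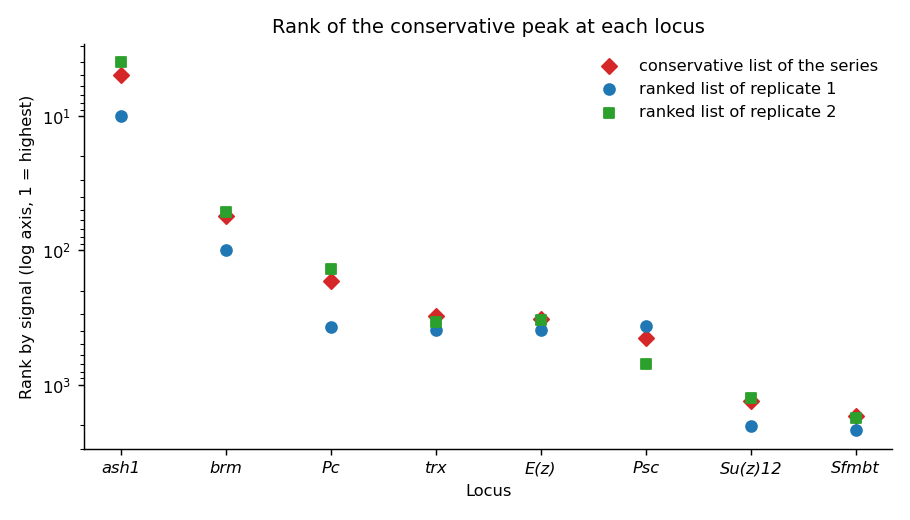
Rank by signal (log axis, 1 is the highest) of the conservative peak at 8 loci, in the conservative list of 2167 peaks and in the ranked lists of replicate 1 and replicate 2. The ash1 peak stands at places 5, 10 and 4, brm at 56, 99 and 52, and Su(z)12 and Sfmbt are the lowest in all 3 lists.

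The order of the 8 peaks was similar in both replicates. The ash1 peak was first and brm second in each, and Su(z)12 and Sfmbt were the last 2. The order of the middle 4, Pc, trx, E(z) and Psc, changed between replicates, from places 364 to 393 in replicate 1 to places 139 to 707 in replicate 2, so their order among themselves is not settled by these data. The summits of the replicates lay 7 to 44 bp apart. In each replicate's own thresholded list 7 of the 10 loci held a peak, all but Sfmbt, esc and pho, where 16.6% of all protein-coding genes did in replicate 1 and 16.6% in replicate 2. The less strict list held peaks at the same 8 loci as the conservative list, against 23.3% of all genes.

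The 4 promoter summits each lay between or beside divergent start sites. The TSS of another protein-coding gene on the opposite strand was within 500 bp of each. Counted without regard to strand, 63.0% of the 1468 genes with a conservative TSS peak had their summit within 500 bp of another protein-coding gene's TSS as well. At brm the neighbour was Arl1, which encodes a small GTPase of the Golgi, with its TSS 266 bp from that of brm. The summit lay between both, 112 bp upstream of brm and 154 bp upstream of Arl1. At E(z) the start sites of E(z) and Cnep1r2 were 16 bp apart, and the summit lay 56 bp upstream of Cnep1r2. At Su(z)12 the neighbour was Pfdn6, which encodes a prefoldin subunit, with a TSS 209 bp from that of Su(z)12 and 313 bp from the summit. At Sfmbt it was CG5439, with 365 bp between the start sites and the summit 226 bp upstream of CG5439. In the ranked lists of replicates 1 and 2 the Sfmbt summit lay in a coding exon of a further gene, CG43925. It was 434 and 416 bp downstream of the CG43925 TSS. The conservative summit had no CG43925 TSS within 500 bp. In the conservative list each of the 4 summits was nearer to the outermost TSS of the Polycomb or trithorax gene than to the neighbour's. In replicate 2, however, the brm summit lay at -134 bp from the brm TSS and at -132 bp from that of Arl1, and from the canonical E(z) TSS (-211 bp) the Cnep1r2 TSS was the nearer one. A peak beside divergent start sites cannot be assigned to either gene from its position. The summits at brm and Sfmbt were upstream of the start site, as were 82.7% of the 1084 conservative summits within 500 bp of a protein-coding TSS (median -97 bp), and those at E(z) and Su(z)12 were downstream.

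**Figure D3:**
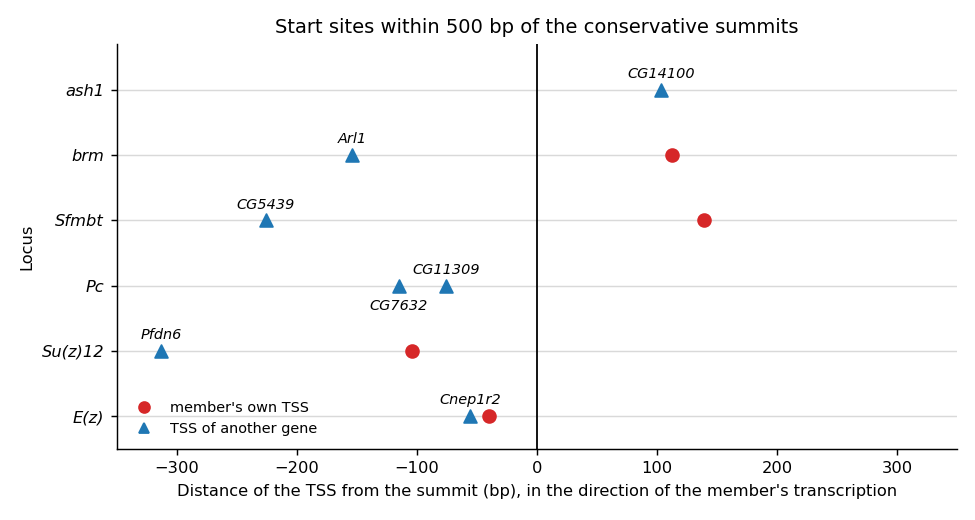
Start sites within 500 bp of the conservative summits at 6 loci, as the distance in bp of each TSS from the summit (at 0) in the direction of the named locus' transcription; red circles are the gene's own TSS and blue triangles those of other genes. The summits at brm and Sfmbt lie between their red and blue points, those at E(z) and Su(z)12 have both on the left, and ash1 and Pc have only blue points.

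The promoters of the 10 genes spanned a wide range of ranks when read in the ranked list of the series. The best ranked peak within 500 bp of the own TSS stood within the first 0.0441% of the list at brm, 0.238% at E(z), 1.04% at Su(z)12, 1.45% at Sfmbt and 1.47% at Psc. It stood at 5.74% at trx, 9.29% at esc, 21.1% at Pc and 32.8% at ash1. Sfmbt, inside the conservative threshold, and Psc, outside it, had signals of 74.6 and 74.0 and nearly the same place, 2067 and 2097. The order of the lower promoters differed between the lists: in replicate 2 the lowest was trx, at 54.9%, followed by Pc at 27.9%, esc at 18.2% and ash1 at 10.1%.

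**Figure D4:**
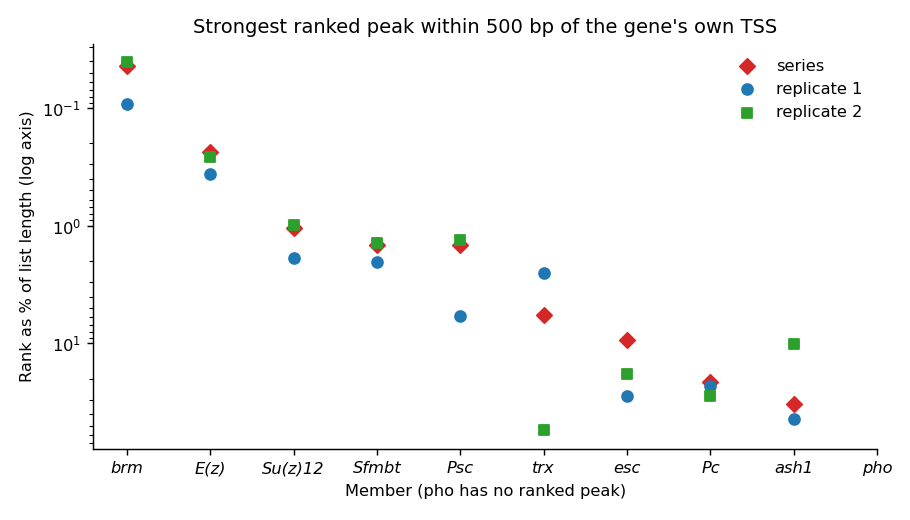
Place of the strongest ranked peak within 500 bp of each gene's own TSS, as a percentage of the length of its list (log axis, top is the highest signal), for the series and each replicate. brm and E(z) lie above 1% in all 3 lists, Su(z)12 and Sfmbt follow, Psc lies at 5.85% in replicate 1 and near Sfmbt in the other lists, and trx has its replicates farthest apart, at 2.54% and 54.9%.

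Other genes of the same complexes gave a context of 47 genes, a list drawn up with earlier results on such genes known and therefore no independent support. Of these, 9 had a TSS peak in the conservative list, against 10.5% of all protein-coding genes, and 11 in the less strict list, against 12.3%. In the replicates' own thresholded lists 9 did in replicate 1 (8.35% of all genes) and 7 in replicate 2 (8.78%). The conservative count of 9 was 4 with a TSS window of 200 bp and 5 when a summit counted only toward its closest TSS. The share over all protein-coding genes was not computed under either rule, so these counts cannot be set against 10.5%. No other PRC2 gene (0 of 4) and neither PR-DUB gene (0 of 2) had a conservative TSS peak. Among PRC1 genes ph-p, whose protein Polyhomeotic forms polymers, had the highest signal of the 47 genes. It was 483 at place 64, with the summit 484 bp downstream of the TSS. Reads of ph-p may be hard to tell from those of its tandem copy ph-d, and this was not tested.

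Genes of proteins that bind Polycomb response elements had TSS peaks at Trl (185, +142 bp), which encodes GAGA factor, psq (116, -104 bp), which encodes the GAGA-binding protein Pipsqueak, and grh (62.7, -386 bp), which encodes the transcription factor Grainyhead, or 3 of 6. Of the other Brahma complex genes only Bap60 had one (124, 91 bp upstream, 1 of 9), beside a TSS of CG12096. Of the COMPASS-like genes only Rbbp5 had one (110, 1 of 11), with the summit 322 bp upstream and the TSS of eRF1, the translation release factor gene, close by. Among other trithorax group genes 3 of 7 had TSS peaks. These were skd (113, -445 bp), which encodes a Mediator subunit, fs(1)h (77.7, -267 bp), which encodes a bromodomain protein, and Chd1 (114, -266 bp), which encodes a remodeller. Over all protein-coding genes 10.5% had a conservative TSS peak, and no group was tested against that share. Replicate 2's own thresholded list had no TSS peak at skd or fs(1)h, and replicate 1's had none at grh. At skd and Chd1 the summit also lay within 500 bp of Pdss2 and Bem46. In the conservative list all 9 signals were below that of brm, and all but that of ph-p were below that of E(z). This order did not hold in replicate 2, where ph-p (662.4) stood above brm (315.8) and Trl (127.4) above E(z) (118.1). Each value is the strongest peak within 500 bp of any TSS of the gene in that list. At ph-p and Trl, with 2 conservative TSS peaks each, it need not be the same peak in both lists.

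**Figure D5:**
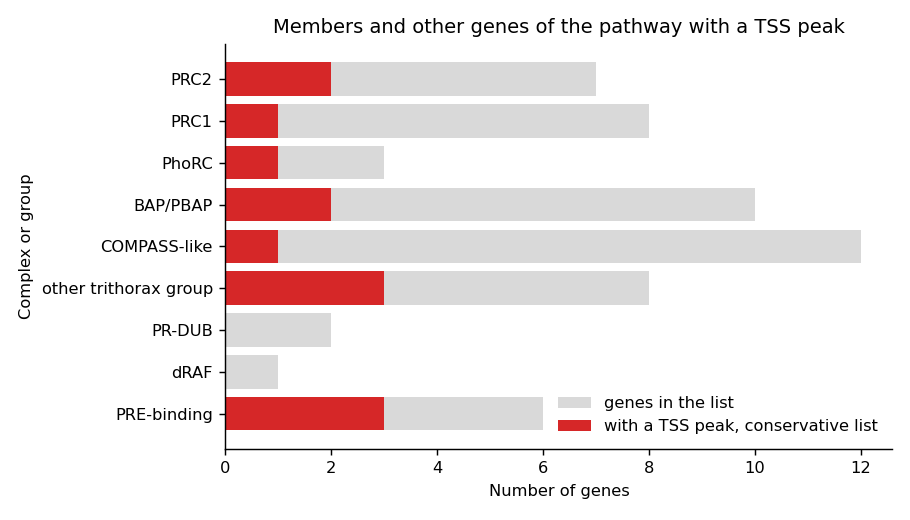
Number of genes in each complex or group (grey bars) and of those with a conservative summit within 500 bp of their TSS (red bars), for the 10 genes and the 47 others together. Red bars reach 2 of 7 for PRC2, 1 of 8 for PRC1, 2 of 10 for the Brahma complexes, 3 of 6 for genes of element-binding proteins and 0 for PR-DUB and dRAF. The red PRC2 genes, E(z) and Su(z)12, and brm of the Brahma complexes are among the 10 chosen with their peaks known. Over all protein-coding genes the share was 10.5%, and no bar was tested against it.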

How the data were processed

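Peaks of 2 replicates of eGFP-tagged CG8765 in embryos were read from deposited interval lists on dm6. Fragments were 200 to 800 bp long, per the labels. The signal of each peak and its score, set from the irreproducible discovery rate, are the authors' deposited values. The sources used here do not name the aligner or the peak caller. The ranked lists' further columns (20 in the 2 lists of the series) were not used.

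Genes and TSSs came from Ensembl release 115 (BDGP6.54, transposable elements left out), and sequence from RefSeq's release of the same assembly. Peaks on arms 2L, 2R, 3L, 3R, X, Y and chromosome 4 were used. Ranks run over each whole list, and a TSS peak has its summit within 500 bp of a TSS. Replicates are biological, per the labels. The genes and lists were chosen with earlier results of these data known. The background by gene length was added after the values had been seen. Of the 47 other genes, 1 was matched by an older name (calypso, now caly). Named genes are the 10, the genes with a TSS within 500 bp of their thresholded summits, and the others with a conservative TSS peak. CG43925 is named for its TSS near the Sfmbt summits of the replicates' ranked lists. No test was made. Position functions were tested on simulated data. Python 3.11.15, NumPy 2.4.6, pandas 2.3.3 and matplotlib 3.10.9 were used.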

Additional observations from a re-analysis of the deposited data

How the results depend on the processing

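Of 30 alternative values of the 4 main counts, 27 stayed within 1.5 times the reported count. The number of the 10 genes with a TSS peak was 4, and 2 (brm and E(z)) above the median signal of the conservative list. The number of the 47 other genes with a TSS peak was 9, but 4 with a TSS window of 200 bp and 5 when a summit counted only toward its closest TSS. The share over all protein-coding genes was not computed under either of these rules. Without either replicate, 3 of the 10 genes and 7 to 9 of the 47 had a TSS peak, and 7 loci held 7 peaks. With a flank of 5 kb the loci held 11 conservative peaks instead of 8, and with 1 kb they held 7. The E(z) summit turned from 40 bp downstream to -211 bp with the canonical TSS, which is how that alternative is built. The 8 windows held 15 combinations of window and string, 6 with 50 bp on each side and 20 with 150 bp. No paired analysis was possible because the series holds 1 group. The depth is unknown, so a locus without a peak is not shown to be unbound.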

Other observations

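Several of the 47 other genes held conservative peaks away from their start sites. The gene body or its 2 kb flanks held a conservative summit at 21 of the 47 genes, where 19.8% of all protein-coding genes and 24.3% of those in the length range of the 10 held one. That range was not set for the 47 genes. Several of them, osa and tna included, are longer than trx, the longest of the 10, and longer genes offer more room for a peak. Of the 47, 9 had a TSS peak. The genes osa, which encodes a subunit of a Brahma complex, and tna, a trithorax group gene, each held 4 conservative peaks and none at a TSS. The ph-p locus held 5, of which 2 were at a TSS. Less strict TSS peaks with no conservative counterpart were found at ph-d (60.4) and kis (59.8), which encodes a chromodomain remodeller. These genes, apart from ph-p, were named after their values had been seen.

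The trx intron peak that no thresholded list holds was 1 of 100 such peaks on the arms. Of 2235 peaks with a score of 830 or more in the series' ranked list, these 100 (4.47%) overlapped no thresholded peak of any list. In the ranked lists of replicates 1 and 2 the numbers were 83 of 1961 and 70 of 1742. Among the 10 loci trx was the only one with such a peak.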
